A study of Mus musculus with 12 samples.

Results

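The CCN family consists of 6 genes, Ccn1 to Ccn6, and was taken here by gene symbol from the 56748 genes of a bulk RNA-seq count table. Of these genes, 16465 passed the filter on low counts and were tested, and all 6 CCN genes were among them, although Ccn6 passed with very few reads. The libraries came from 10T1/2 cells (C3H10T1/2), an established wild-type line of mouse embryonic mesenchymal progenitors. After serum starvation, with 1 h in suspension, cells spent 18 h on collagen-coated hydrogels of 12 kPa (type I collagen, 0.05 mg/ml). The labels give 0.5% serum for the suspension step, whereas the study's methods give serum-free medium there and low serum for the culture on hydrogels. The collagen was polymerized alone (col1) or with 30 nM recombinant aortic carboxypeptidase-like protein (col1-ACLP). In the third group (col1-ACLP+SB), cells on the ACLP substrate also received 5 µM SB431542, an inhibitor of the TGFβ type I receptor kinase, when they were seeded. Each group had 4 libraries, 12 in all, and no group received the inhibitor on collagen alone, so that an action of SB431542 on the response to ACLP and an action of its own cannot be told apart. The study calls the libraries of a group biological replicates. The labels do not say whether these were separate cultures, and p-values measure the spread between these libraries.

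CCN proteins are secreted matricellular proteins, which sit in the ECM without forming its scaffold. They are built from a signal peptide, an IGF-binding-protein-like module, a von Willebrand factor type C module and a thrombospondin type 1 repeat, followed in all members but CCN5 by a C-terminal cystine knot. They bind integrins, heparan sulfate proteoglycans and growth factors, and in fibroblasts Ccn1 (formerly Cyr61) and Ccn2 (formerly Ctgf) are textbook targets of the YAP and TEAD, MRTF and SRF, and TGFβ and SMAD pathways.

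In the gene models of the table, on the GRCm39 build, Ccn1 lay at chr3:145352731-145355736 on the minus strand and Ccn2 at chr10:24471340-24474581 on the plus strand. Ccn3 and Ccn4 shared a chromosome, at chr15:54609098-54617435 and chr15:66763169-66795050, both on the plus strand. Ccn5 lay at chr2:163662781-163675066 on the plus strand and Ccn6 at chr10:39026966-39039790 on the minus strand. Each canonical transcript had 5 exons. They encoded 379 residues for Ccn1, 348 for Ccn2, 354 for Ccn3, 367 for Ccn4 and 354 for Ccn6. Ccn5, the member without the cystine knot, encoded 251 residues from 4 coding exons.

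Genes on the opposite strand overlapped 4 of the 6 CCN genes by gene span, introns included. Because the strand setting of the counting is not given in the sources used here, reads from shared bases cannot be told apart. The lncRNA Gm17501, which overlaps Ccn1, had a mean of 6.45 CPM (counts scaled to TMM-adjusted library size) on col1, and the lncRNA Gm15270, which overlaps Ccn2, had 0.369 CPM. Both were far below their CCN partners. The lncRNA Gm46514 overlaps Ccn4 and had no row in the table. Tube1, which encodes ε-tubulin, shares 1573 bases of gene span with Ccn6 and had 4.18 CPM on col1, above the 0.130 CPM of Ccn6 itself. Whether exons of both genes overlap was not examined, so the origin of the few Ccn6 reads was not settled. No gene overlapped Ccn3 or Ccn5.

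RefSeq promoter sequences were matched by symbol for 2 of the 6 genes, Ccn1, the most abundant member, and Ccn6, the least abundant. The 250 bases before each start site are printed 5′ to 3′ on the gene's strand, from GRCm38.p6, at chr3:145649986-145650235 for Ccn1 and chr10:39163795-39164044 for Ccn6. No entry matched Ccn2, Ccn3, Ccn4 or Ccn5, so their promoters were not searched. Capitals mark matches to the motifs searched.
Ccn1: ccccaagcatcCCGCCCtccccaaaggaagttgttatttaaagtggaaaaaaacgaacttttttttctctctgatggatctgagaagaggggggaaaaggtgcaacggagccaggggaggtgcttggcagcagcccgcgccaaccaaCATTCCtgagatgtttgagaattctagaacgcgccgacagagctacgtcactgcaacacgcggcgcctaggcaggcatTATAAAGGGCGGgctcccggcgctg
Ccn6: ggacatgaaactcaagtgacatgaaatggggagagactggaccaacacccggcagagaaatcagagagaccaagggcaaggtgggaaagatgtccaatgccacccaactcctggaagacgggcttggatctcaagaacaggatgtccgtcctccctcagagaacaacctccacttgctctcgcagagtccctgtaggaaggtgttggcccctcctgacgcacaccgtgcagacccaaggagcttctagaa
The motifs were TEAD (GGAATG), SMAD (CAGACA), AP-1 (TGANTCA), TCF/LEF (CTTTGA), SP1 (GGGCGG), the TATA box (TATAAA) and the CArG box of SRF, each on both strands. Ccn1 held a TEAD match on the opposite strand (printed as CATTCC) at -103 to -98 from the start site, a motif present in 12.6% of the 32851 promoters of the table. It held SP1 matches at -239 to -234 and at -19 to -14 (32.7% of promoters hold one) and a TATA match at -25 to -20 (12.4%), which adjoins the second SP1 match without overlap. The SMAD (17.1%), AP-1 (6.75%), TCF/LEF (13.8%) and CArG (1.47%) letters were not in this window of Ccn1, and none of the 7 motifs was in that of Ccn6. Both windows had a GC content of 54.8%, against a median of 52.4% over all promoters. A match is a description of the sequence and not evidence of binding.

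Library depth ranged from 29246154 to 52201922 counts. One library, col1 replicate 2, stood apart from the other 11 on the first principal component and had a count in 18556 genes, against 20037 to 21332 in the others, and the counts of CCN genes called higher or lower were the same without it in all 3 comparisons. All 10 mesenchymal markers examined, among them Pdgfra, Thy1 and Col1a1, had 1 CPM or more, as the label of the line requires. Of the markers of other cell types, 1 of 5 haematopoietic genes (Cd68, 5.32 to 10.04 CPM), 1 of 5 epithelial genes (Cdh1, 1.88 to 3.84 CPM), 1 of 4 skeletal muscle genes (Des, 0.651 to 2.65 CPM), 0 of 4 endothelial and 0 of 4 adipocyte genes had a mean of 1 CPM or more, and Epcam, Myod1 and Myog were at 0 in every library. Sums over several lists moved with ACLP. The mesenchymal genes summed to 25715 to 26645 CPM on col1, against 35505 to 43737 CPM with ACLP and 32418 to 37891 CPM with ACLP and SB431542, with Col1a1 and Col1a2 the most abundant. Over all libraries Col1a1 ran from 11727 to 24445 CPM and Col1a2 from 7195 to 12762 CPM, whereas Vim ran only from 4711 to 5377 CPM. The study reports Pdgfra, also on this list, as suppressed by ACLP. The sum therefore does not describe every member. The haematopoietic genes summed to 9.14 to 10.04, 5.46 to 8.72 and 7.11 to 9.80 CPM in the same order of groups, nearly all of it Cd68. The adipocyte genes summed to 0.794 to 2.28, 0.390 to 1.02 and 0.342 to 0.695 CPM, mostly Fabp4. The chondrocyte list differed more in proportion than the mesenchymal one. Its 4 genes summed to 820 to 1001 CPM on col1, against 2896 to 3898 CPM with ACLP and 2250 to 2743 CPM with ACLP and SB431542, nearly all of it Col2a1, with 3 of the 4 genes at 1 CPM or more and Acan at 0 throughout. The 4 osteoblast genes summed to 9.20 to 10.6, 3.47 to 5.21 and 6.13 to 9.13 CPM in the same order, mostly Dmp1, with Ibsp at 0. The part of these lists in the CCN results was not tested. In bulk libraries a lower level can mean fewer cells of a kind or less RNA per cell, and these cannot be told apart.

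The family was dominated by Ccn1 and Ccn5, and the order of its less abundant members changed with ACLP. Levels of different genes are compared per length, as FPKM (CPM per kilobase of gene model). On col1 the mean FPKM was 244 ± 19.0 for Ccn1 (SD, n = 4), 145 ± 2.30 for Ccn5, 19.4 ± 2.16 for Ccn3, 16.7 ± 1.92 for Ccn2, 6.70 ± 0.694 for Ccn4 and 0.0918 ± 0.123 for Ccn6. Only Ccn3 and Ccn2 overlapped between their libraries in this order. On col1-ACLP the order was Ccn1 at 297 ± 38.1 FPKM, Ccn5 at 219 ± 18.1, Ccn2 at 46.3 ± 9.67, Ccn4 at 20.8 ± 2.22, Ccn3 at 13.2 ± 0.841 and Ccn6 at 0.197 ± 0.110. Ccn3 thus moved behind Ccn2 and Ccn4. The order on col1-ACLP+SB was that of col1-ACLP, with 285 ± 42.6, 188 ± 8.58, 37.2 ± 4.62, 15.3 ± 1.61, 11.4 ± 1.10 and 0.219 ± 0.118 FPKM, and in neither of these groups did neighbours in the order overlap.

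The first question was how collagen-bound ACLP changed the family. On col1-ACLP, Ccn2, Ccn4 and Ccn5 rose relative to col1, and Ccn4 and Ccn2 rose the most, 3.10-fold and 2.77-fold. Genes were called where the edgeR quasi-likelihood test gave an adjusted p under 0.05 and its log2 fold change exceeded 0.58 in size, both thresholds being those of the study. By this rule 3 of the 6 CCN genes were higher, against 2.61% of all genes tested, and 0 of 6 were lower, against 2.36%. At an unadjusted p under 0.05, 1 gene, Ccn3, was lower, against 14.0% of all genes, and DESeq2 and limma-voom each called 0 lower by the same thresholds. By adjusted p alone 5 of the 6 passed, against 17.9% of all genes, and for 4 of the 6 no library of one group fell within the range of the other, against 21.2%. The median log2 fold change of all genes tested was -0.0099.

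Ccn2, the connective tissue growth factor of fibrotic tissue, had 44.4, 49.5, 42.4 and 54.7 CPM in replicates 1 to 4 on col1. On col1-ACLP it had 112, 120, 125 and 173 CPM. All 4 ACLP libraries lay above all 4 col1 libraries, with replicate 4 the highest. The log2 fold change was 1.47 (SE 0.108, 95% interval 1.25 to 1.69, adjusted p = 1.25e-10).

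Ccn4, first described as a WNT1-inducible gene (Wisp1), had 35.8, 42.6, 33.5 and 37.2 CPM on col1 and 107, 109, 112 and 134 CPM on col1-ACLP. The groups were widely separated, and as with Ccn2 the highest library was col1-ACLP replicate 4. Its log2 fold change was 1.63 (SE 0.0836, 95% interval 1.46 to 1.81, adjusted p = 1.91e-13). The change did not differ detectably from that of Ccn2, since the log2 ratio of Ccn2 to Ccn4 counts was 0.36 ± 0.14 on col1 and 0.18 ± 0.13 on col1-ACLP (exact two-sided permutation test p = 0.114, adjusted p = 0.156 over 30 ratio tests).

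Ccn5, the member without the cystine knot (formerly Wisp2), had 281, 284, 275 and 275 CPM on col1, a coefficient of variation of 1.59%. It had 427, 400, 390.5 and 468 CPM on col1-ACLP. Every ACLP library was above every col1 library. The log2 fold change of 0.60 (SE 0.0518, 95% interval 0.49 to 0.70, adjusted p = 2.43e-09) lay just past the size threshold. Without col1-ACLP replicate 4 it was 0.55, and with library size alone as the scaling it was also 0.55, in both cases short of the threshold at an adjusted p under 0.05. Under glmTreat, which tests against that threshold, 2 CCN genes were called higher in place of 3.

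Ccn3, formerly Nov, which is known to oppose Ccn2 in several tissues, was the one member with lower values on col1-ACLP. It had 51.0, 63.6, 57.9 and 50.6 CPM on col1 and 40.3, 37.8, 38.7 and 34.6 CPM on col1-ACLP. The groups did not overlap, and the log2 fold change was -0.56 (SE 0.0838, 95% interval -0.73 to -0.39, adjusted p = 1.77e-05), short of the size threshold by a small margin. It passed that threshold without col1 replicate 1 (-0.60), without col1 replicate 4 (-0.60) and without col1-ACLP replicate 1 (-0.59), and with library size alone (-0.61).

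Ccn1, an immediate-early gene, had 465, 545, 463 and 497 CPM on col1. On col1-ACLP it had 540, 526, 656 and 674 CPM. The groups overlapped, with col1 replicate 2 above the lower ACLP libraries. The log2 fold change was 0.28 (SE 0.0837, 95% interval 0.11 to 0.45, adjusted p = 0.0185), under the size threshold, and the adjusted p ran from 5.46e-07 to 0.0957 over the alternatives, the highest with DESeq2.

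Ccn6, formerly Wisp3, was barely detected. It had 15, 2, 1 and 2 reads on col1, 6, 4, 12 and 12 with ACLP, and 8, 13, 6 and 14 with ACLP and SB431542. The ranges overlapped in all comparisons. Its fitted log2 fold change of 1.06 for col1-ACLP against col1 had a 95% interval from -0.79 to 2.92 (adjusted p = 0.494), so that no difference was detectable at this depth. Without col1 replicate 1, the library with 15 reads, it was 2.58 (adjusted p = 0.125).

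**Figure D1:**
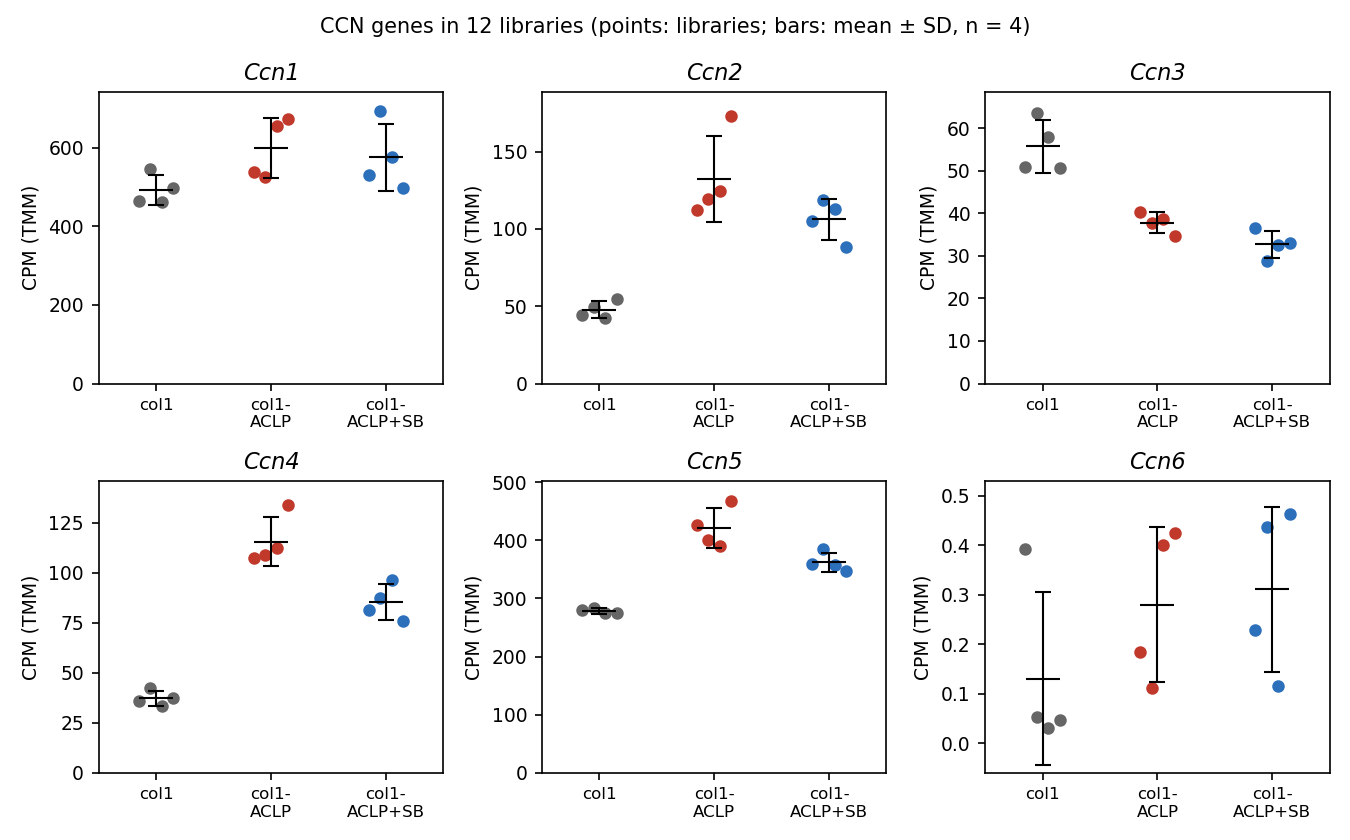
CPM (TMM-scaled) of each CCN gene in the 4 libraries of each group, with the mean and SD in black and a separate linear axis per gene. Ccn2, Ccn4 and Ccn5 sat higher in every col1-ACLP library than in any col1 library, Ccn3 sat lower, Ccn1 overlapped, and Ccn6 stayed under 0.5 CPM.

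The second question was whether the differences from col1 were still present when the TGFβ type I receptor kinase was inhibited. With SB431542, Ccn2 and Ccn4 were still higher than on col1 and Ccn3 was lower. Thus 2 of the 6 genes were called higher, against 1.27% of all genes tested, and 1 of 6 lower, against 1.01%. By adjusted p alone 4 passed, against 9.13%, and 4 did not overlap with col1, against 13.0%. These comparisons use the same col1 libraries as those above, so both sets of values share the error of that group.

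Ccn2 had 105, 119, 113 and 88.4 CPM on col1-ACLP+SB. Each library was above the highest col1 library. The log2 fold change against col1 was 1.15 (SE 0.108, 95% interval 0.93 to 1.38, adjusted p = 2.16e-08).

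Ccn4 had 81.3, 87.5, 96.7 and 75.8 CPM, again above every col1 library and, unlike Ccn2, below every col1-ACLP library. Its log2 fold change against col1 was 1.20 (SE 0.0831, 95% interval 1.02 to 1.37, adjusted p = 1.17e-10).

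Ccn3 had 36.6, 28.9, 32.5 and 33.1 CPM, the lowest mean of the 3 groups. All 4 values lay below the col1 libraries. The log2 fold change was -0.77 (SE 0.0841, 95% interval -0.94 to -0.59, adjusted p = 3.12e-07), and the gene was called lower under every alternative except glmTreat, which tests against the size threshold itself.

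Ccn5 had 359, 386, 357 and 347 CPM on col1-ACLP+SB, between the other groups and overlapping neither. Its log2 fold change against col1 was 0.38 (SE 0.0517, 95% interval 0.27 to 0.49, adjusted p = 8.62e-06), under the size threshold. Ccn1 had 532, 695, 578 and 498 CPM, a range that held every col1-ACLP value but, of the col1 values, only replicate 2 at 545 CPM. Its log2 fold change was 0.22 (95% interval 0.05 to 0.40, adjusted p = 0.104). It was 0.12 without col1-ACLP+SB replicate 2 (adjusted p = 0.414) and 0.29 without col1-ACLP+SB replicate 4 (adjusted p = 0.0326). For Ccn6 it was 1.20 (95% interval -0.64 to 3.05, adjusted p = 0.518), and 2.72 without col1 replicate 1 (adjusted p = 0.151).

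Between col1-ACLP+SB and col1-ACLP, the direct comparison of inhibitor with no inhibitor in the presence of ACLP, differences were small. None of the 6 genes was called by edgeR, in either direction, where 0.0850% of all genes tested were called higher and 0.0425% lower. At an unadjusted p under 0.05, 4 CCN genes (Ccn2 to Ccn5) were lower, against 6.63% of all genes, and 0 higher, against 6.19%, and DESeq2 and limma-voom also called 0 by the same thresholds. By adjusted p alone 2 of the 6 passed, Ccn4 and Ccn5, against 1.48% of all genes, and the same 2 did not overlap, against 8.17%.

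Ccn4 was lower with the inhibitor by a log2 difference of -0.44 (SE 0.0806, 95% interval -0.60 to -0.27, adjusted p = 0.00453), and the adjusted p stayed under 0.05 in 20 of 20 alternatives. For Ccn5 the log2 difference was -0.22 (SE 0.0516, 95% interval -0.32 to -0.11, adjusted p = 0.0294), under 0.05 in 13 of 20 alternatives and up to 0.122 without col1-ACLP replicate 4. Both differences were smaller than those against col1, and the Ccn4 level with inhibitor was 2.29-fold that on col1.

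Ccn2 differed by -0.31 (SE 0.105, 95% interval -0.53 to -0.10, adjusted p = 0.149) and Ccn3 by -0.21 (95% interval -0.38 to -0.03, adjusted p = 0.270). Neither passed the test, and without col1-ACLP replicate 4, the library with the highest Ccn2, the Ccn2 value was -0.16 (adjusted p = 0.519). With no filter on low counts the Ccn2 value was -0.32 (adjusted p = 6.50e-05), the 1 alternative of 20 with an adjusted p under 0.05. For Ccn1 the value was -0.06 (95% interval -0.23 to 0.12, adjusted p = 0.867) and for Ccn6 0.14 (95% interval -1.64 to 1.92, adjusted p = 0.982), the last interval spanning changes in either direction larger than any measured in the family.

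**Figure D2:**
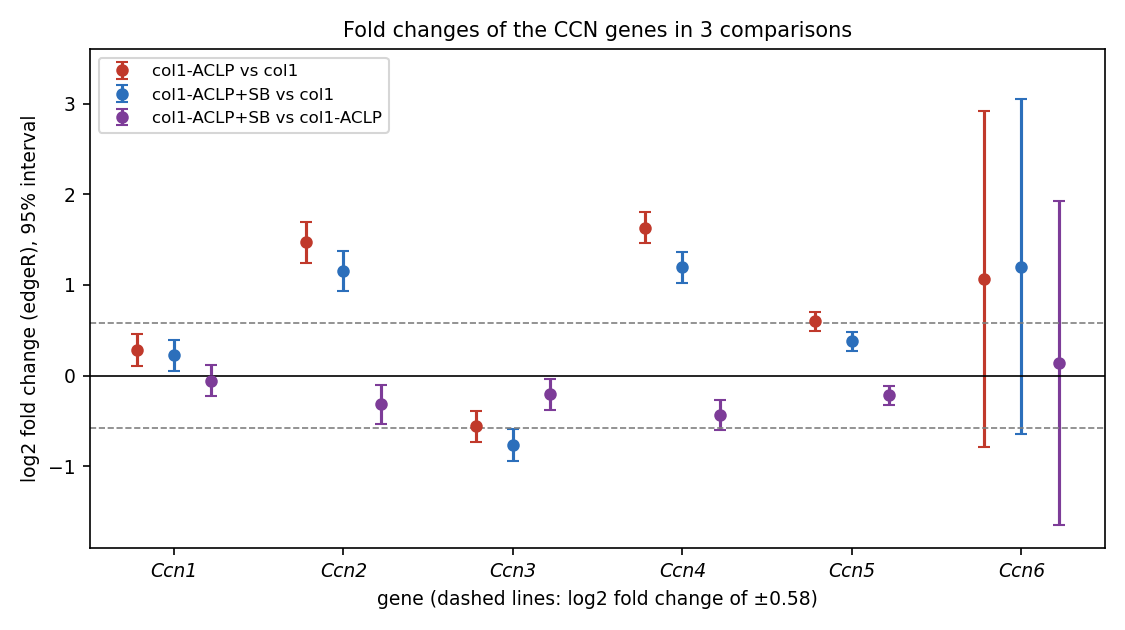
Log2 fold changes of the 6 CCN genes from the edgeR fit in 3 comparisons, with 95% intervals and dashed lines at the size threshold of 0.58. Ccn2 and Ccn4 lay above the upper line against col1 with and without SB431542, Ccn3 lay below 0, and the Ccn6 intervals crossed both lines.

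The composition of the family and the ratios between its members were compared next. The summed FPKM of the 6 genes was 432 ± 23.5 on col1, 596 ± 58.2 with ACLP and 537 ± 55.01 with ACLP and SB431542. The sum was higher than on col1 by 0.46 on the log2 scale with ACLP and by 0.31 with ACLP and SB431542 (exact two-sided permutation tests, p = 0.0286 for each, the smallest that 4 against 4 libraries can give), and the last 2 groups differed by -0.15 (p = 0.200).

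Ccn1 made up 56.5% ± 1.31 of the summed FPKM on col1, 49.7% ± 2.80 with ACLP and 52.9% ± 2.40 with ACLP and SB431542. The share of Ccn2 was 3.87% ± 0.375, 7.71% ± 0.897 and 6.91% ± 0.408 in the same order. Ccn3 accounted for 4.50% ± 0.391, 2.24% ± 0.320 and 2.15% ± 0.375, so that the shares of Ccn2 and Ccn3, close to each other on col1, lay far apart on both ACLP substrates. Ccn4 held 1.55% ± 0.0782, 3.49% ± 0.123 and 2.86% ± 0.268, and Ccn5 33.6% ± 1.51, 36.8% ± 2.63 and 35.2% ± 2.04. Over the 18 tests of shares (6 genes in 3 comparisons) the smallest adjusted p was 0.0643, so none passed, although the share of Ccn1, Ccn2, Ccn3 and Ccn4 did not overlap between col1 and col1-ACLP.

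**Figure D3:**
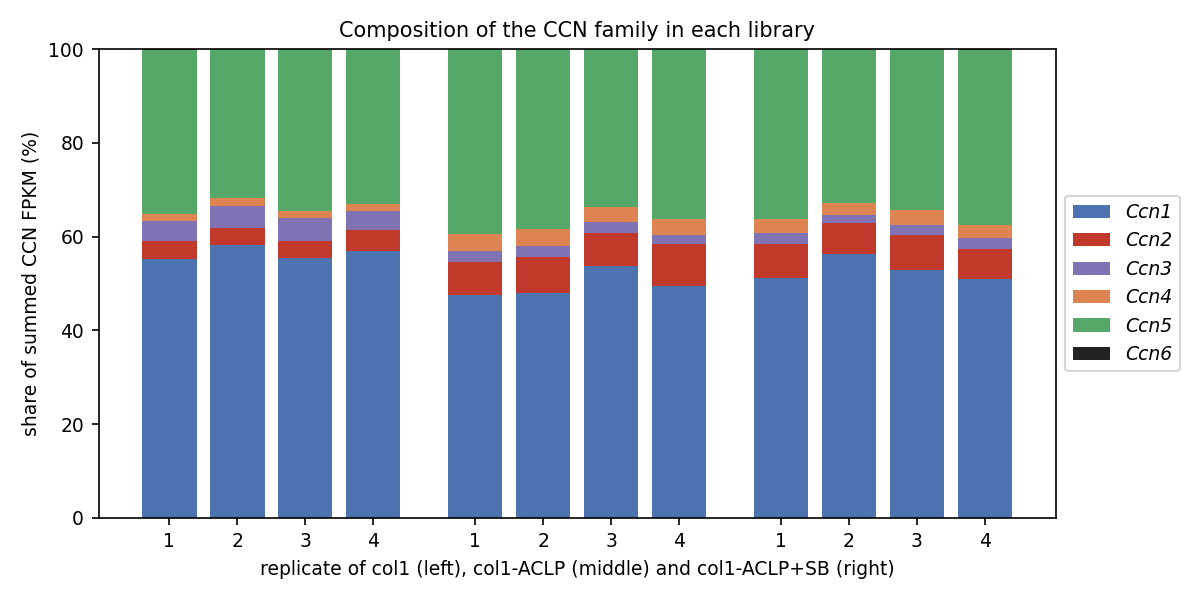
Share of each CCN gene in the summed FPKM of the family, in percent, as 1 stacked bar per library. Ccn1 and Ccn5 filled most of every bar, and the Ccn2 and Ccn4 segments were wider, and the Ccn3 segment narrower, in all 8 libraries with ACLP than in the 4 col1 libraries. Ccn6 is too small to be seen.

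Ratios within a library need no scaling between libraries. The log2 ratio of Ccn2 to Ccn3 counts was -0.22 ± 0.25 on col1, 1.79 ± 0.37 with ACLP and 1.69 ± 0.28 with ACLP and SB431542. That of Ccn3 to Ccn4 was 0.58 ± 0.15, -1.61 ± 0.24 and -1.38 ± 0.24. In both cases the sign of the mean was reversed between col1 and the ACLP groups. Ccn1, although it was the most abundant member throughout, had lower mean log2 ratios to Ccn2 with ACLP, with log2 ratios of Ccn1 to Ccn2 of 3.37 ± 0.13, 2.19 ± 0.19 and 2.43 ± 0.10. The log2 ratio of Ccn1 to Ccn4 was 3.73 ± 0.05, 2.37 ± 0.12 and 2.75 ± 0.17, the one ratio that separated col1-ACLP+SB from col1-ACLP without overlap.

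Of the 30 tests (10 pairs of the 5 genes other than Ccn6, in 3 comparisons), 17 reached the smallest p possible, 0.0286. Their adjusted p was 0.0504, and none was under 0.05. With single libraries left out, 19 were under 0.05 without col1-ACLP replicate 3 and 18 without col1-ACLP+SB replicate 3. Tests tied at the smallest p share the same adjusted p, which depends on how many tests tie. They therefore cross 0.05 together, and these counts say nothing about any single ratio.

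**Figure D4:**
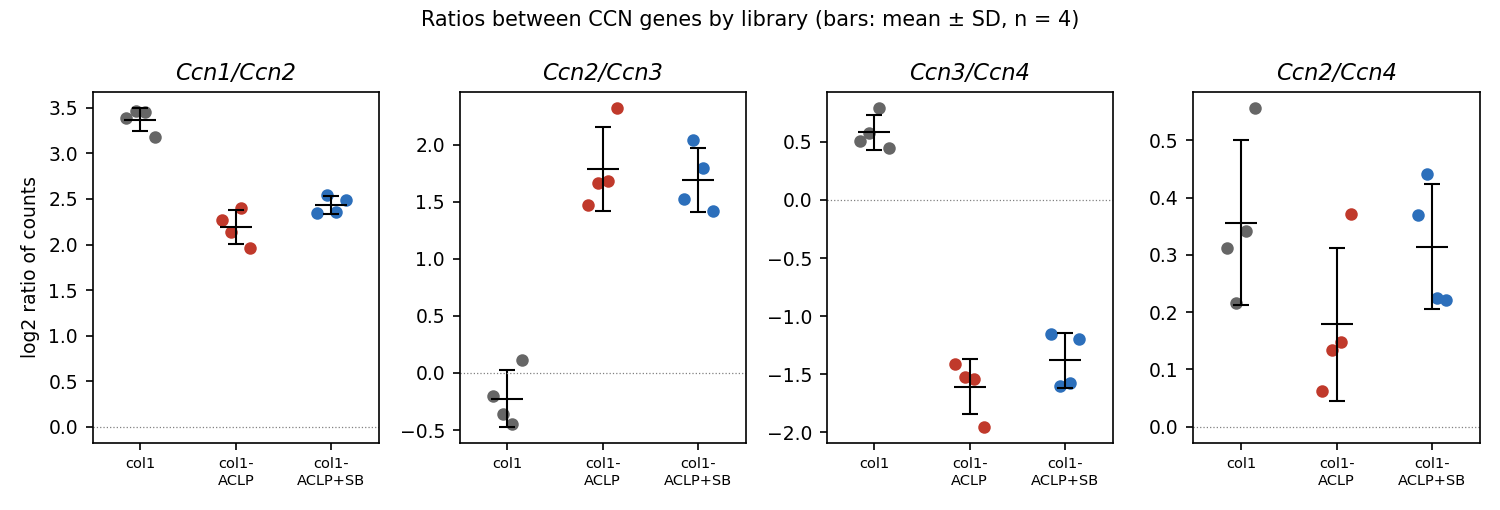
Log2 ratios of counts between pairs of CCN genes in each library, with the mean and SD in black and a separate axis per pair. The Ccn2/Ccn3 and Ccn3/Ccn4 means changed sign between col1 and both ACLP groups, whereas the Ccn2/Ccn4 ratio overlapped in all 3 groups.

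Within groups, Ccn1, Ccn2, Ccn4 and Ccn5 tended to deviate together from library to library, with correlations of 0.54 to 0.81 in all pairs of these genes. After the mean of each group was removed from log2 CPM, the Pearson correlation over the 12 libraries was 0.81 for Ccn2 with Ccn4, 0.75 for Ccn1 with Ccn2 and 0.71 for Ccn1 with Ccn4. Ccn5 correlated at 0.68 with Ccn2 and 0.57 with Ccn4. For Ccn3 the values were -0.49 with Ccn2, -0.38 with Ccn5, -0.34 with Ccn1 and -0.14 with Ccn4. Ccn6, with its few reads, had -0.45 with Ccn3 and from -0.06 to 0.26 with the others, so that 6 of the 15 pairs were negative. The points share library and scaling, and these values are given as a description.

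Over all 12 libraries, the tested genes with the profile most like each member were found by Pearson r of log2 CPM. For Ccn1 they were Klf2, a mechanosensitive transcription factor (r = 0.954), Rhob, a small GTPase of the actin cytoskeleton (0.892), Wbp11 (0.889), Psmd4 (0.887) and Adamtsl2 (0.880). For Ccn2 they were Slc6a6, the taurine transporter (0.991), Serpinh1, the collagen chaperone (0.990), Pycr1, an enzyme of proline synthesis (0.987), Slc7a5, an amino acid transporter (0.984) and Acta2, smooth muscle actin (0.983). Among them Pycr1, Slc7a5 and Acta2 differed between col1-ACLP and col1 by log2 fold changes of 1.19, 1.10 and 1.18, whereas Slc6a6 and Serpinh1 differed by 0.47 and 0.45.

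For Ccn4 the most alike genes were Loxl4, a lysyl oxidase that crosslinks collagen (0.996), Pmp22 (0.993), Fibin (0.992), Lgr4, an R-spondin receptor (0.990) and Col1a2 (0.990). Col1a2 was also among those of Ccn5 (0.986), with Fads1, a fatty acid desaturase (0.988), Cdsn (0.987), the matricellular gene Sparc (0.986) and Lars, a leucyl-tRNA synthetase (0.986). Ccn3 was most like Tbl1x (0.973), the interleukin-1 antagonist Il1rn (0.947), the nuclear receptor Rora (0.945), Clmn (0.943) and the oncostatin M receptor Osmr (0.943), whose log2 fold changes on col1-ACLP ran from -0.56 to -0.11. For the scarcely detected Ccn6 they were Dnajb2 (0.868), Sorbs2os (0.865), Bglap3 (0.862), Focad (0.861) and Als2cl (0.855). With Spearman's rho in place of r, 1 of the 5 genes was shared for Ccn1, 2 for Ccn2, 2 for Ccn3, 3 for Ccn4, 0 for Ccn5 and 2 for Ccn6, so the places in these lists are not stable.

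Genes of known CCN biology were then counted from 7 lists, beginning with the receptors through which CCN proteins act. These counts stand beside those of all genes tested, of which on col1-ACLP 2.61% were called higher and 2.36% lower (9.52% and 8.41% by adjusted p alone, median log2 fold change -0.0099), and with SB431542 1.27% and 1.01% against col1 (4.60% and 4.54% by adjusted p alone). Of 18 receptor genes 15 were tested, and on col1-ACLP 2 were called higher and 0 lower than on col1 (8 higher and 2 lower by adjusted p alone). The median of their log2 fold changes was 0.18. Fgfr2, an FGF receptor, rose from 8.08 to 13.5 CPM (log2 fold change 0.74, adjusted p = 3.72e-04), and Itga6, an integrin subunit bound by CCN1, rose from 56.8 to 91.2 CPM (0.68, adjusted p = 3.88e-08). Itgb3 and Itgb5, subunits of the αv integrins, had log2 fold changes of 0.54 and 0.34, short of the size threshold. With SB431542, 0 receptor genes were called against col1 in either direction (4 higher and 2 lower by adjusted p alone), and Fgfr2 and Itga6 had 0.48 and 0.34.

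Of 18 binding partners 14 were tested, and on col1-ACLP 2 were called higher and 1 lower (6 higher and 1 lower by adjusted p alone), with a median of 0.31. Tnfrsf11b, the decoy receptor osteoprotegerin, rose from 26.5 to 87.4 CPM (log2 fold change 1.72, adjusted p = 1.17e-12), and Pdgfb, a fibroblast mitogen, rose from 27.7 to 50.8 CPM (0.87, adjusted p = 4.59e-08). Dcn, decorin, a small proteoglycan that binds both collagen and CCN2, fell from 83.5 to 26.6 CPM (-1.65, adjusted p = 3.65e-13). The related proteoglycan Bgn had 0.43. The same genes were called against col1 with SB431542, at 1.10 for Tnfrsf11b, 0.72 for Pdgfb and -1.35 for Dcn. Between the ACLP groups 1 of the 14 partners was called, Tnfrsf11b, which was lower with the inhibitor (-0.62, adjusted p = 7.46e-04), where 0.0425% of all genes tested were called lower.

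The Hippo and TEAD machinery, the regulators of YAP, were all tested (22 of 22). On col1-ACLP 1 was called higher and 0 lower (8 higher and 3 lower by adjusted p alone), with a median of 0.03. This was Tead4, a DNA-binding TEAD factor, from 6.55 to 11.6 CPM (log2 fold change 0.82, adjusted p = 0.00247). Vgll4, a TEAD cofactor that competes with YAP, had -0.57, just short of the threshold, Amotl2 had 0.45 and Vgll3 0.27. With SB431542 none was called against col1, where 2 were higher and 3 lower by adjusted p alone. None of the 6 MRTF and SRF factors tested, of 7 listed, was called in any comparison, and Fhl2, Scai, Phactr1 and Mrtfb had log2 fold changes of -0.36, -0.29, -1.49 and 0.14 on col1-ACLP, of which Fhl2 and Scai had an adjusted p under 0.05.

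Of the SMAD and Wnt factors, all 16 were tested and 2 were called higher and 0 lower on col1-ACLP (5 higher and 2 lower by adjusted p alone), with a median of 0.06. Both are inhibitors of TGFβ signaling that the pathway itself induces. Skil rose from 15.5 to 31.5 CPM (log2 fold change 1.02, adjusted p = 4.22e-08) and Smad7 from 9.24 to 14 CPM (0.60, adjusted p = 7.01e-04). With SB431542, Skil was still higher than on col1 (0.80, adjusted p = 3.94e-06) and Smad7 had 0.44. Axin2, a Wnt feedback gene, was called lower with SB431542 than on col1, at levels of 0.536 and 0.0427 CPM, at which a few reads decide the value. Ctnnb1, β-catenin, had 0.40 on col1-ACLP.

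Other targets of the same pathways were counted beside Ccn1 and Ccn2. Of 21 YAP and TEAD targets 20 were tested, and 1 was called higher and 0 lower on col1-ACLP (5 higher and 1 lower by adjusted p alone, where 9.52% and 8.41% of all genes were), with a median of 0.09. Ccdc80, a matrix protein, rose from 87.0 to 169 CPM (log2 fold change 0.96, adjusted p = 1.83e-11). Amotl2, which also stood in the previous list, had 0.45, Rbms3 had 0.43 and Crim1 -0.40. The value of Ccn2, 1.47, was above that of each of the 20, of which Ankrd1, at a mean of 0.452 CPM on col1 and 1.10 CPM with ACLP, had the highest at 1.27 (adjusted p = 0.137), whereas Ccn1 at 0.28 was within their range. With SB431542, 0 targets were called against col1 in either direction (4 higher and 4 lower by adjusted p alone), and Ccdc80 had 0.56.

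Of 18 SRF targets 17 were tested, and 2 were called higher and 2 lower on col1-ACLP (6 higher and 4 lower by adjusted p alone), with a median of -0.11. Acta2 rose from 503 to 1139.6 CPM (log2 fold change 1.18, adjusted p = 5.57e-14) and Actg2, another smooth muscle actin, from 1.93 to 5.98 CPM (1.62, adjusted p = 2.85e-04). Tpm2, a tropomyosin, fell from 129 to 68.7 CPM (-0.91, adjusted p = 1.90e-11), and Fosl1, an AP-1 subunit, from 2.98 to 1.22 CPM (-1.28, adjusted p = 0.0136). The members of this list thus moved in both directions. With SB431542, 2 were called higher against col1, Acta2 at 0.94 and Actg2 at 0.98, and 0 lower (6 higher and 4 lower by adjusted p alone).

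**Figure D5:**
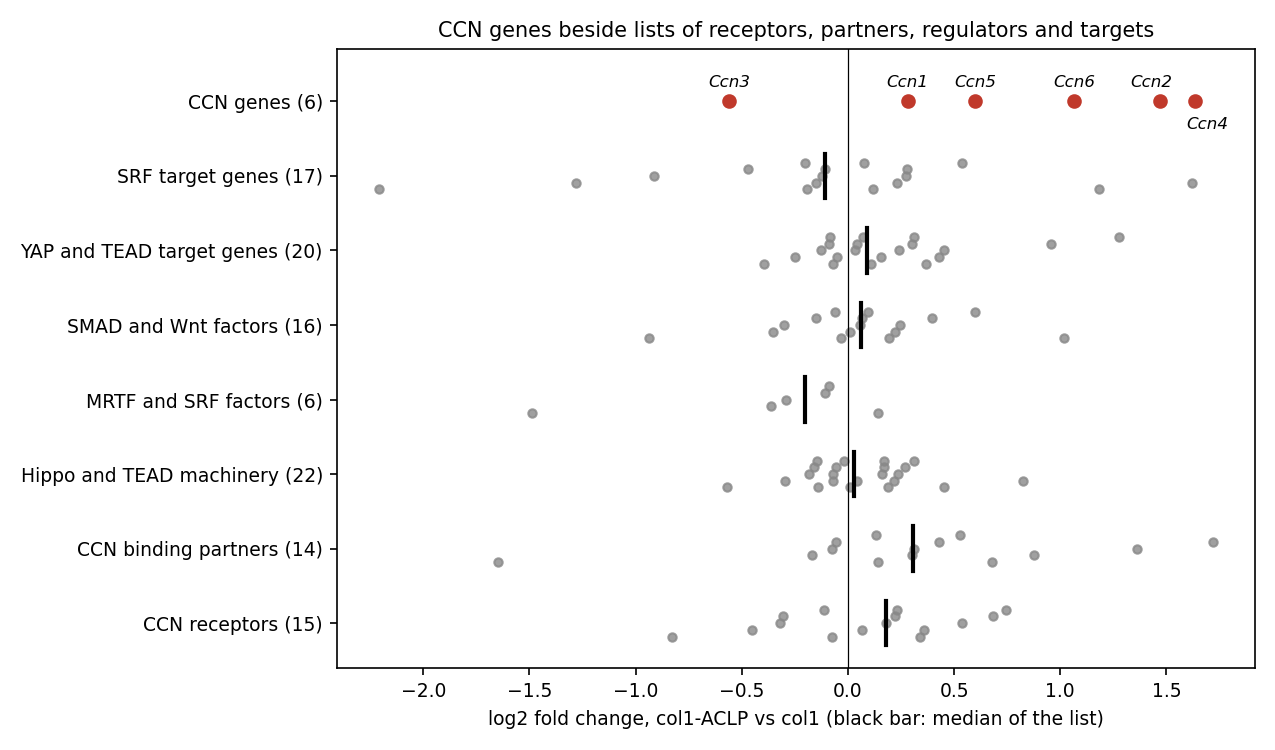
Log2 fold change of col1-ACLP against col1 for the CCN genes (red, labelled) and for the tested genes of 7 lists (grey, number tested in brackets), with the median of each list as a black bar. The list medians lay between -0.20 and 0.31, whereas Ccn2 and Ccn4 lay at 1.47 and 1.63.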

How the data were processed

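Bulk RNA-seq of polyA-selected RNA was analysed in 12 libraries, with 4 per substrate condition. The authors deposited raw read counts per gene with gene coordinates and lengths. Reads were mapped with HISAT2. The sample records name mm10 and the study's methods GRCm39, and the coordinates in the table are those of GRCm39. The counting tool and strand setting are not given in the sources used here.

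Counts were filtered (filterByExpr), TMM-scaled and tested in one edgeR 4.0.16 quasi-likelihood fit over 12 libraries (R 4.3.3), with Benjamini-Hochberg adjustment over 16465 genes. Calls needed an adjusted p under 0.05 and a log2 fold change beyond 0.58. Standard errors are the log2 fold change over the square root of F. CPM and FPKM (from the gene lengths) were computed from the counts. Ratios used a pseudocount of 0.5, and ratios and shares were tested by exact two-sided permutation. The script was tested on simulated data. The first targets for recovering changed genes were missed at low counts. The target that was met was set after those runs, for well expressed genes only, and does not cover Ccn6. Alternatives were RLE factors, library size alone, other filters, only the groups compared, the replicate number as a block, DESeq2 1.42.0 (the tool named in the study's methods), limma-voom (limma 3.58.1), adjusted p alone, glmTreat, and each library left out.

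All 6 CCN genes are reported whatever their values. The 5 genes most like each member by Pearson r, and up to 4 genes a list (called genes first, then by p on col1-ACLP against col1), are also named. Ankrd1, the highest of its list, and the marker genes were named after their values were seen. Members and lists were chosen with earlier results of these data known, and the lists therefore are not independent evidence.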

Additional observations from a re-analysis of the deposited data

Results flagged for a closer look

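Of 66 groups of 4 values examined by Dixon's criterion, 3 held a library far from the other 3, about the number that chance gives at 1 in 20. On col1, Ccn6 had 0.392 CPM in replicate 1, which rested on 15 reads, against 0.0304 to 0.0530 CPM in the other 3 libraries. Its percentage of the summed CCN FPKM in the same library, 0.0663%, was set apart in the same way and is the same measurement on another scale. On col1-ACLP, the log2 ratio of Ccn3 to Ccn5 was -3.76 in replicate 4, against -3.40 to -3.34 in the others. That library had the lowest Ccn3 and the highest Ccn5 of its group, and also the highest Ccn1, Ccn2 and Ccn4.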

How the results depend on the processing

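Replicate numbers in the labels did not pair the libraries (correlations of same-numbered deviations from -0.0372 to 0.0360), and the fit with the replicate block called the same 3 genes higher on col1-ACLP and, against col1 with SB431542, the same 2 higher and 1 lower. The number of CCN genes called higher stayed within 1.5 times the reported count in all alternatives. The number lower on col1-ACLP against col1 was 1 (Ccn3) in place of 0 with library size alone and with adjusted p alone, and 0 to 1 when single libraries were left out. The number lower on col1-ACLP+SB against col1 was 0 under glmTreat, and the number lower on col1-ACLP+SB against col1-ACLP was 2 with adjusted p alone. The number of ratio tests under 0.05 ran from 0 to 19 when single libraries were left out. Ccn3 lay close to the size threshold, and adjusted p alone and glmTreat change that threshold itself. Ratio tests tied at the smallest p share the same adjusted p and cross 0.05 together. The cause of the other changes was not tested. Signs reversed with single libraries left out in small differences that passed no test. Between col1-ACLP+SB and col1-ACLP these were the log2 fold changes of Ccn6 (-0.13 to 0.43) and Ccn1 (-0.16 to 0.0055), the log2 ratios Ccn2/Ccn3 (-0.21 to 0.086), Ccn3/Ccn5 (-0.089 to 0.095) and Ccn1/Ccn3 (-0.00252 to 0.25), and the share of Ccn3 (-0.23 to 0.086 percentage points). Against col1 with SB431542 it was the Ccn2/Ccn4 ratio (-0.089 to 0.0249). Ccn6, with 1 to 15 reads a library, gave no adjusted value under the filter on a mean of 10 counts, with DESeq2 or, against col1, in the fit of only the groups compared.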
